A study of Homo sapiens with 18 samples.

Results

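A pair of groups of untreated colorectal cancer cells that overexpress LIN28B were compared gene by gene: 3 libraries labelled LoVo LIN28B and 3 libraries of DLD-1 LIN28B, 6 of the 18 libraries of the series. LoVo and DLD-1 are established human colorectal adenocarcinoma lines, and DLD-1 is known for a mutation of the mismatch repair gene MSH6. All 6 libraries come from cells with the genotype of LIN28B overexpression and no drug, grown in DMEM with serum. The other groups used as context are LoVo and DLD-1 with an empty vector (EV, no drug) and LIN28B cells of both labels given alpelisib, an inhibitor of the alpha catalytic subunit of phosphatidylinositol 3-kinase (PI3K), at 5 µM, with 3 libraries each. The promoter that drives LIN28B, whether a line is 1 clone, the vehicle and the length of treatment are not given in the sources used here. Of 61806 genes listed, 15495 had at least 1 TPM (a transcript level corrected for transcript length and library total) in 3 or more of the 6 libraries and were tested.

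LIN28B is an RNA-binding protein of embryonic cells that is often re-expressed in colorectal cancer, where it blocks the maturation of the let-7 family of microRNAs and so relieves their target mRNAs. Colon epithelium is built by transcription factors such as CDX2, which sets intestinal fate, and matures into absorptive enterocytes, marked by KRT20, and mucus-secreting goblet cells. Colorectal cancer lines differ widely in how much of this programme they keep, and in how active the hypoxia-inducible factors (HIF) are, which switch on genes for glycolysis, blood vessel growth and mitochondrial remodelling.

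Over the genes tested, the libraries labelled LoVo LIN28B were closer to the DLD-1 libraries than to those labelled LoVo EV, so the LoVo label is used as a label only. Pearson's r of log2(TPM + 1) across the 15495 genes, which are not independent, was 0.957 to 0.963 between the LoVo-labelled and DLD-1 LIN28B libraries, 0.955 to 0.961 between the LoVo-labelled LIN28B and DLD-1 EV libraries, and 0.887 to 0.916 between the LoVo-labelled LIN28B and LoVo EV libraries. Between the DLD-1 LIN28B and LoVo EV libraries r was 0.878 to 0.916. Within the groups r was 0.977 to 0.978 for LoVo-labelled LIN28B and 0.978 to 0.983 for DLD-1 LIN28B. The 15495 genes were chosen by their levels in the LIN28B libraries, so genes present in LoVo EV alone are left out of r. A set of 45 genes that stood at 20 TPM or more in LoVo EV and under 1 TPM in DLD-1 EV were therefore followed into the LIN28B cells. In LoVo-labelled LIN28B, 2 of the 45 reached 20 TPM, 24 lay between 1 and 20 TPM and 19 lay under 1 TPM, and the median gene stood at 4.14% of its LoVo EV level. The median was 4.51%, 4.48% and 3.58% in the 3 LoVo-labelled libraries taken singly, so the low level was shared by all of them, and it was 0.530% in DLD-1 LIN28B. Of 8 genes with the opposite EV pattern, 3 reached 20 TPM in LoVo-labelled LIN28B, 3 lay between and 2 lay under 1 TPM. What lies behind these values was not tested.

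**Figure D1:**
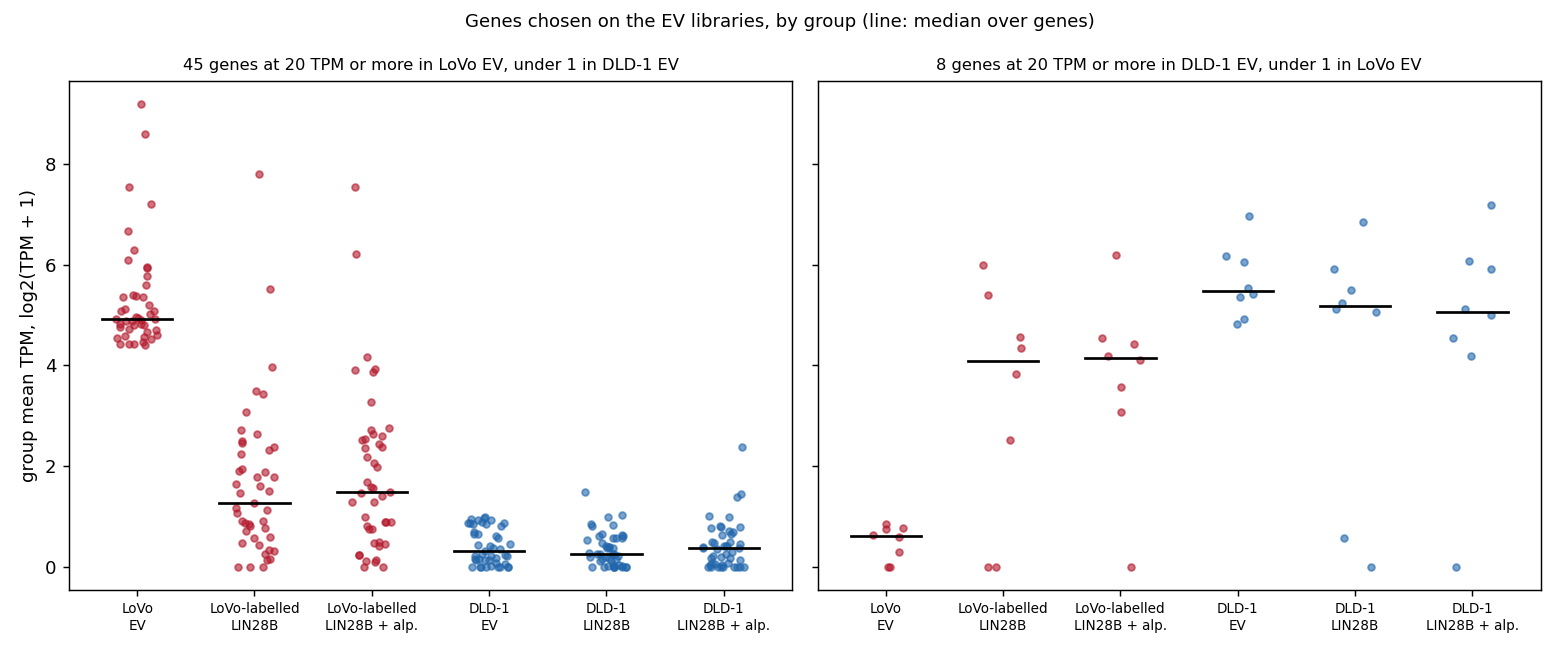
Group mean levels, as log2(TPM + 1) on the vertical axis, of the 45 genes chosen as high in LoVo EV (left) and the 8 chosen as high in DLD-1 EV (right), with 1 point per gene and a line at the median. The LoVo EV genes are low in both LoVo-labelled LIN28B groups, with 2 of 45 at 20 TPM or more in the untreated one, while remaining above the DLD-1 groups in median; EV levels chose these genes and are no result.

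The 2 genes of the 45 at 20 TPM or more were CALB1 and a gene listed without a symbol. CALB1, which encodes the calcium-binding protein calbindin, measured 246, 219 and 206 TPM in LoVo-labelled LIN28B and 0.293, 0.152 and 0.146 TPM in DLD-1 LIN28B. Others were present at a small share of the EV level. BST2, an interferon-induced membrane protein that tethers virions, measured 7.5, 7.58 and 7.28 TPM in the LoVo-labelled libraries and 0.442, 0.124 and 0.986 TPM in DLD-1 LIN28B, against a mean of 185 ± 41 (SD, n = 3) TPM in LoVo EV. The LoVo-labelled libraries were above every DLD-1 LIN28B library for 25 of the 45 genes and overlapped them for the other 20. Over all 15495 genes tested, 3254 lay above and 2716 below in the same way. The 45 genes were chosen as under 1 TPM in DLD-1 EV, and 43 were under 1 TPM in DLD-1 LIN28B. That left little room for lower values, so the direction of this count is no result.

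Markers of colorectal epithelium were present in both groups. EPCAM and CDH1, the adhesion molecules of epithelial cells, KRT8, VIL1, CDH17 and GPA33 were present in all 6, with CDH1 at 272, 223 and 281 TPM in the LoVo-labelled and 301, 289 and 284 TPM in the DLD-1 libraries. Of 16 fibroblast and endothelial markers, 3 reached 1 TPM in any LoVo-labelled and 4 in any DLD-1 library, with summed levels of 7.72 to 9.70 and 6.92 to 8.45 TPM, and COL1A2, DCN and CDH5 were at 0 in all 6. Of 16 leukocyte markers, 3 and 4 reached 1 TPM, with sums of 7.86 to 12.3 and 5.86 to 7.43 TPM, and CD3D, CD3E and MS4A1 were at 0 in all 6. The 18 enteroendocrine and neural markers summed to 345 to 401 TPM in LoVo-labelled and 182 to 204 TPM in DLD-1 libraries, mostly from ENO2 and SCG5, while CHGB, NEUROD1 and INSM1 were at 0 in all 6. The share of TPM in mitochondrial genome genes was 7.24% to 10.3% in the LoVo-labelled and 10.3% to 11.1% in the DLD-1 libraries, and 23038 to 24129 and 23114 to 23488 genes were above 0.

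Between the groups, 2564 of 15495 genes (16.5%) passed the test at an adjusted p under 0.05. Of these, 1425 (9.20% of genes tested) were higher and 1139 (7.35%) lower in LoVo-labelled LIN28B, and the counts of members below are to be read against these shares. The excess of higher calls did not hold under other scalings, with 1431 higher and 1437 lower under scaling by the median of ratios and 1350 and 1447 without mitochondrial genome genes. A 2-fold difference or more on the log2(TPM + 1) scale was reached by 354 of the higher genes (2.28%) and 172 of the lower genes (1.11%). The median difference over all genes was 0.01, a value that depends on the scaling. It was -0.0094 under scaling by the median of ratios and -0.017 without mitochondrial genome genes. All differences below are LoVo-labelled minus DLD-1 LIN28B in log2(TPM + 1), with the standard error from limma, and they understate the change of genes near 0. Nothing in the labels says that the libraries of a group came from separate cultures, so the p-values measure the spread between these libraries, which may be technical.

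**Figure D2:**
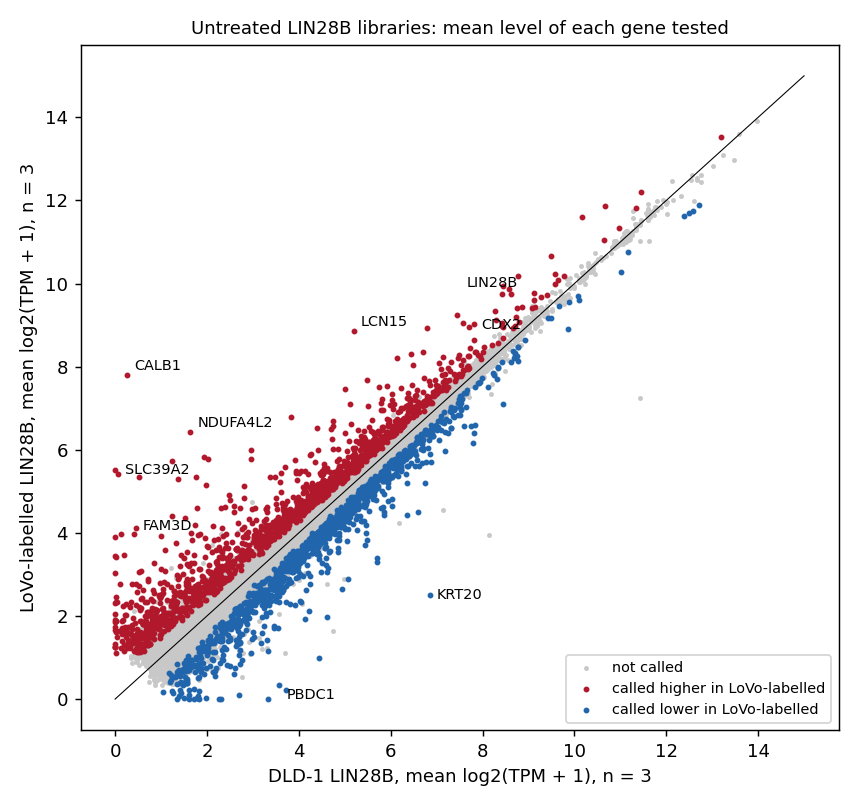
Mean log2(TPM + 1) of each gene tested in DLD-1 LIN28B (horizontal axis) and LoVo-labelled LIN28B (vertical axis), 3 libraries each, with the line of equal levels. Red points are the 1425 genes called higher and blue points the 1139 called lower in LoVo-labelled LIN28B; CALB1, NDUFA4L2 and SLC39A2 lie far above the line and KRT20 far below it.

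KRT20, the keratin of mature enterocytes (GRCh38 chromosome 17, 40875941 to 40885227), measured 4.9, 4.95 and 4.32 TPM in the LoVo-labelled and 118, 114 and 111 TPM in the DLD-1 LIN28B libraries. The groups did not overlap, and the difference was -4.33 ± 0.13, adjusted p = 7.15e-13. NDUFA4L2, a mitochondrial protein related to a subunit of complex IV and a known HIF target (chromosome 12, 57234903 to 57240715), went the other way, at 86.2, 80.7 and 90.3 TPM in LoVo-labelled and 2.64, 2.46 and 1.39 TPM in DLD-1 cells. Its difference was 4.80 ± 0.22, adjusted p = 1.81e-10. SLC39A2, a zinc importer (chromosome 14, 20999255 to 21001871), measured 41.2, 45.6 and 38.5 TPM in LoVo-labelled cells. In DLD-1 LIN28B it was listed at 0 in 2 libraries and at 0.156 TPM in the remaining one, a difference of 5.34 ± 0.15, adjusted p = 3.48e-13. FAM3D, a protein secreted by gut epithelium (chromosome 3, 58633946 to 58666848), measured 14.1, 22.9 and 13.3 TPM against 0, 0.792 and 0.41 TPM, a difference of 3.66 ± 0.30, adjusted p = 1.55e-07. CDX2 (chromosome 13, 27962137 to 27971139) was abundant in all 6 libraries. It measured 402, 347 and 455 TPM in LoVo-labelled and 249, 236 and 196 TPM in DLD-1 cells, a difference of 0.82 ± 0.13, adjusted p = 3.58e-04. Of the 5 marker genes, then, KRT20 was lower and the other 4 were higher under the LoVo label. SLC39A2 and FAM3D reached 1 TPM in the LoVo-labelled group alone. They passed the filter only through that group, so their direction and p-values cannot serve as support.

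Among the other genes with the largest excess in LoVo-labelled cells, LCN15, a secreted lipocalin, was the most abundant, at 449, 483 and 469.6 against 40.5, 34.1 and 33.5 TPM. TDO2, which opens the indole ring of tryptophan, measured 56.9, 60.5 and 51.1 against 3.92, 2.1 and 2.66 TPM. REG4, a lectin of secretory gut cells, and GCNT3, which builds branched mucin sugars, measured 50.6, 55.9 and 54.6 against 2.95, 2.35 and 4.11 TPM and 34.7, 39.7 and 40.5 against 4.77, 0.577 and 0.879 TPM. In each of these genes all LoVo-labelled libraries were above all DLD-1 libraries, as the rule that chose them required. GCNT3 varied between 0.577 and 4.77 TPM within DLD-1. ODAM and FDCSP, secreted proteins encoded on chromosome 4, measured 49.2, 53.3 and 54.5 against 0.577, 1.35 and 2.63 TPM and 12.8, 16.6 and 12.5 TPM against 0 in all 3 DLD-1 libraries. H2AJ, a histone variant, measured 16.9, 13.6 and 13.5 against 0.247, 0.0302 and 0 TPM. FDCSP and H2AJ passed the filter through the LoVo-labelled group alone, which fixed their direction, so they cannot serve as support.

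On the lower side stood the kallikrein proteases KLK7 and KLK6. KLK7 measured 0, 0.346 and 0.195 TPM in LoVo-labelled cells against 11.2, 14.8 and 10.7 TPM in DLD-1 cells, and KLK6 8.88, 8.46 and 9.36 against 52.6, 55.2 and 46.5 TPM. PBDC1, an X-linked gene, was near absent at 0, 0.293 and 0.572 TPM, against 9.8, 11.8 and 11.2 TPM. OLR1, a receptor for oxidised lipoprotein, measured 9.5, 8.96 and 9.92 against 52.5, 48.2 and 53.5 TPM, and CCRL2, a chemerin-binding receptor, 0, 0 and 0.245 against 6.48, 4.28 and 5.82 TPM. SPTSSB, a small subunit of the enzyme that starts sphingolipid synthesis, measured 5.66, 6.24 and 4.12 against 28.2, 30.7 and 30.1 TPM. NT5C3B, a nucleotidase, measured 4.29, 2.87 and 1.98 against 23.9, 23.9 and 22.3 TPM, and RASSF10, a Ras association domain protein, 2.8, 2.85 and 2.82 against 17.7, 17.4 and 14.6 TPM. PDZK1IP1, KLRC2 and CABP4 completed the 12 largest deficits, with differences of -2.18, -2.10 and -2.19. Among the genes with levels given, KLK7, PBDC1 and CCRL2 passed the filter through the DLD-1 group alone. This fixed their direction, so they cannot serve as support.

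**Figure D3:**
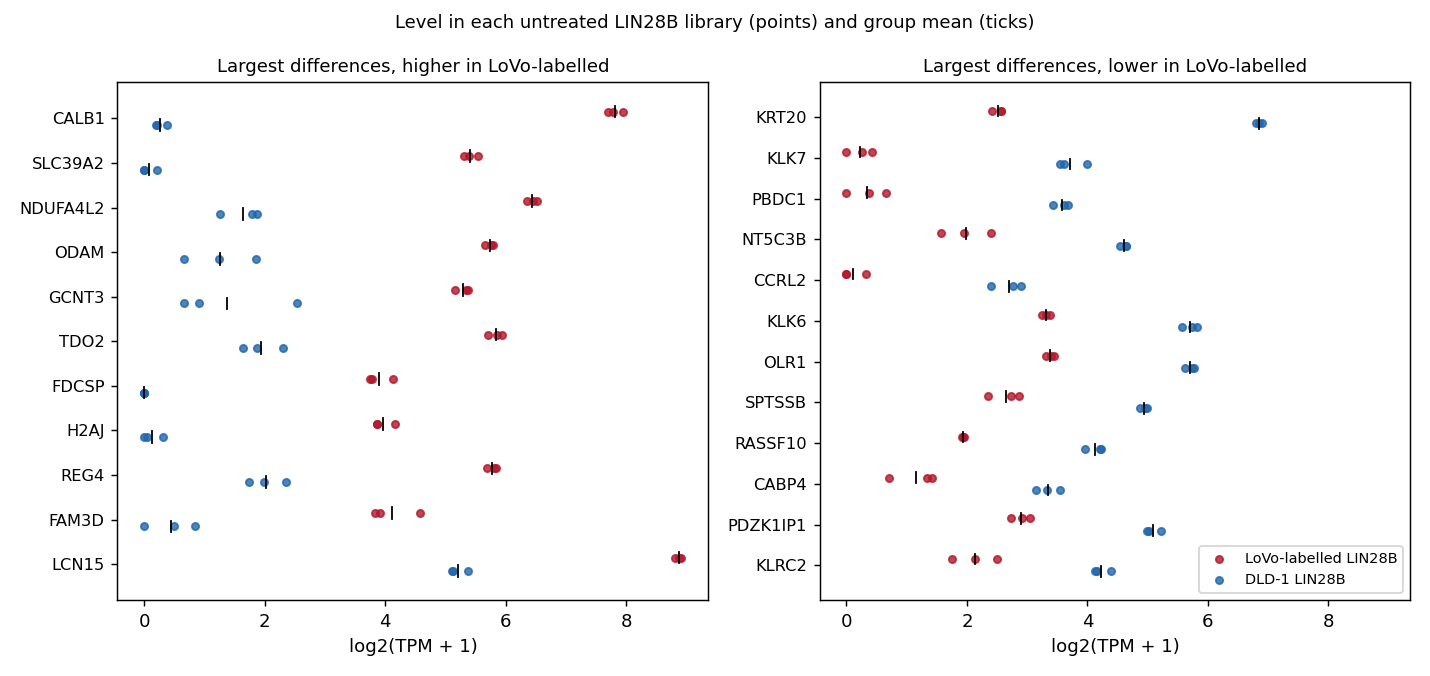
Level of 11 of the 12 genes with the largest excess (left) and of the 12 with the largest deficit (right) in each library, as log2(TPM + 1) on the horizontal axis; points are libraries and ticks are means of 3. Libraries of 1 group lie close together and the groups are apart for all 23 genes, as the rule that chose them required. Some of these genes reached 1 TPM in 1 group alone, which fixed their direction.

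In absolute TPM, the largest excesses among called genes included GAPDH, ALDOA, FTL, DDIT4 and KRT19, and the largest deficits included mitochondrial genome transcripts. GAPDH and ALDOA, both glycolytic enzymes, measured means of 11813 against 9321 TPM and 3612 against 2578 TPM. FTL, the ferritin light chain that stores iron, measured 3663, 3633 and 3882 against 1657, 1629 and 1618 TPM, a difference of 1.19 ± 0.08, adjusted p = 9.48e-09. DDIT4, a stress-induced inhibitor of mTORC1, measured 3173, 2882 and 3258 against 1298, 959.6 and 1235 TPM. The simple keratin KRT19 measured 4711, 4531 and 4969 against 2845, 2888 and 2665 TPM. TMSB4X, an actin-binding peptide, was lower, at 1201, 1326 and 1219 against 2057, 2107 and 2009 TPM. Of 13 mitochondrial genome genes, 4 were called lower and 0 higher, with a list median of -0.35. MT-ND3, a complex I subunit, measured 3792, 4843 and 2924 TPM in LoVo-labelled and 6490.1, 6763 and 6852 TPM in DLD-1 libraries. The third LoVo-labelled library was the lowest for each of the 4, and without it 0 of the 13 were called; without the third DLD-1 library 2 were.

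HIF targets were the list with the highest share of genes called. The list of 36 HIF targets outside glycolysis had 34 members that passed the filter, of which 25 were higher (73.5%, against 9.20% of all genes tested) and 1 lower. Its median difference was 0.77, against 0.01 over all genes. EPO and STC2 were under the filter and were not tested. Each of the 34 passed the filter through both groups. Across the alternatives run, 21 to 27 members were called higher.

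Upstream promoter sequence is shown for 3 called members because the HIF complex binds a short core motif, ACGTG. For each gene the line gives the 250 bases before the annotated start from RefSeq (GRCh38.p14), 5′ to 3′ on the gene's strand, with matches to ACGTG or its reverse complement CACGT in capitals; overlapping matches run together as CACGTG. The windows are chr4:185396591-185396840 (plus strand) for ANKRD37, chr10:131981924-131982173 (minus strand) for BNIP3 and chr19:8363905-8364154 (plus strand) for ANGPTL4.
ANKRD37: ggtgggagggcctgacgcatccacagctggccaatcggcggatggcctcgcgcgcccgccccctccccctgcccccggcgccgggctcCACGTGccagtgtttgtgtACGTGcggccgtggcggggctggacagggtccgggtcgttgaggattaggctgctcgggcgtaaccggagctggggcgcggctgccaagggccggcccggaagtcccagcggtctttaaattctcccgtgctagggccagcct
BNIP3: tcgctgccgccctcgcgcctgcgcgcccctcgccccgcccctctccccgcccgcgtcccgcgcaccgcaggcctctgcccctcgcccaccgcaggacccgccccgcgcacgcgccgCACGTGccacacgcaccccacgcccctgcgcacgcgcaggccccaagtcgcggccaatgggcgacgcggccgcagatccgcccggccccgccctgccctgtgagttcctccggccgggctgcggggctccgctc
ANGPTL4: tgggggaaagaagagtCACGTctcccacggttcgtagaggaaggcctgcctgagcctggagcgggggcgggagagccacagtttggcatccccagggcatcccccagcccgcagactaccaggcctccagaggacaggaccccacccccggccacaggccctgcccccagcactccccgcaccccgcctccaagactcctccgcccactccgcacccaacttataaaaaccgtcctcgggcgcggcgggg
These windows held 3, 2 and 1 matches when both strands were counted. In windows of 300 bases (250 before to 50 after the start), the motif on either strand was found for 5900 of 27305 symbols with a promoter in the table (21.6%), for 17 of the 28 HIF list members with one (60.7%), and for 11 of the 19 that were called higher (57.9%). The motif thus was no more frequent among the called members than in the list. ADM and CA12 had no match in this window. NDUFA4L2, HILPDA and VEGFA were not in the table. A match is a description of the letters and not a measured binding site.

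ANKRD37, a small ankyrin-repeat protein, measured 494, 466 and 502 TPM in LoVo-labelled and 97.4, 102 and 133 TPM in DLD-1 libraries, a difference of 2.14 ± 0.12, adjusted p = 1.50e-09. ANGPTL4, a secreted inhibitor of lipoprotein lipase, measured 319, 273 and 359 against 81.7, 84.4 and 91.5 TPM, and HILPDA, a lipid droplet protein, 642, 538 and 642 against 175, 161 and 187 TPM. Both groups were tight and far apart in these genes. VEGFA, the main growth factor of blood vessels, measured 559, 465 and 548 against 233, 198 and 248 TPM, a difference of 1.21 ± 0.12, adjusted p = 1.09e-06. ADM, a vasodilator peptide, measured 267, 256 and 269 against 81.1, 90.7 and 95.3 TPM. BNIP3, a receptor for the removal of mitochondria, was low in both groups, at 16.1, 11.9 and 13.5 against 3.34, 3.03 and 2.35 TPM, while its paralogue BNIP3L did not pass (0.17, adjusted p = 0.45). NDRG1 and BHLHE40, a stress protein and a transcriptional repressor, had differences of 1.30 and 1.66. The kinase and phosphatase enzymes PFKFB3 and PFKFB4, which set the level of an activator of glycolysis, had differences of 1.55 and 1.09.

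The oxygen sensor EGLN3, itself a HIF target, was higher (0.86, adjusted p = 1.07e-04), while EGLN1 gave 0.37 and did not pass (adjusted p = 0.0671). Of the carbonic anhydrases of the cell surface, CA12 was higher, at 10.3, 10.7 and 11 against 2.13, 2.41 and 1.47 TPM. CA9 was the 1 member called lower, at 2.57, 1.51 and 5.5 against 7.24, 6.6 and 5.89 TPM (-0.96 ± 0.27, adjusted p = 0.0216). The CA9 libraries were spread widely in the LoVo-labelled group, and library 3 of that group was close to the DLD-1 range. It did not pass with the first or second LoVo-labelled or the first or second DLD-1 library left out (adjusted p from 0.0587 to 0.116 in these 4 fits).

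**Figure D4:**
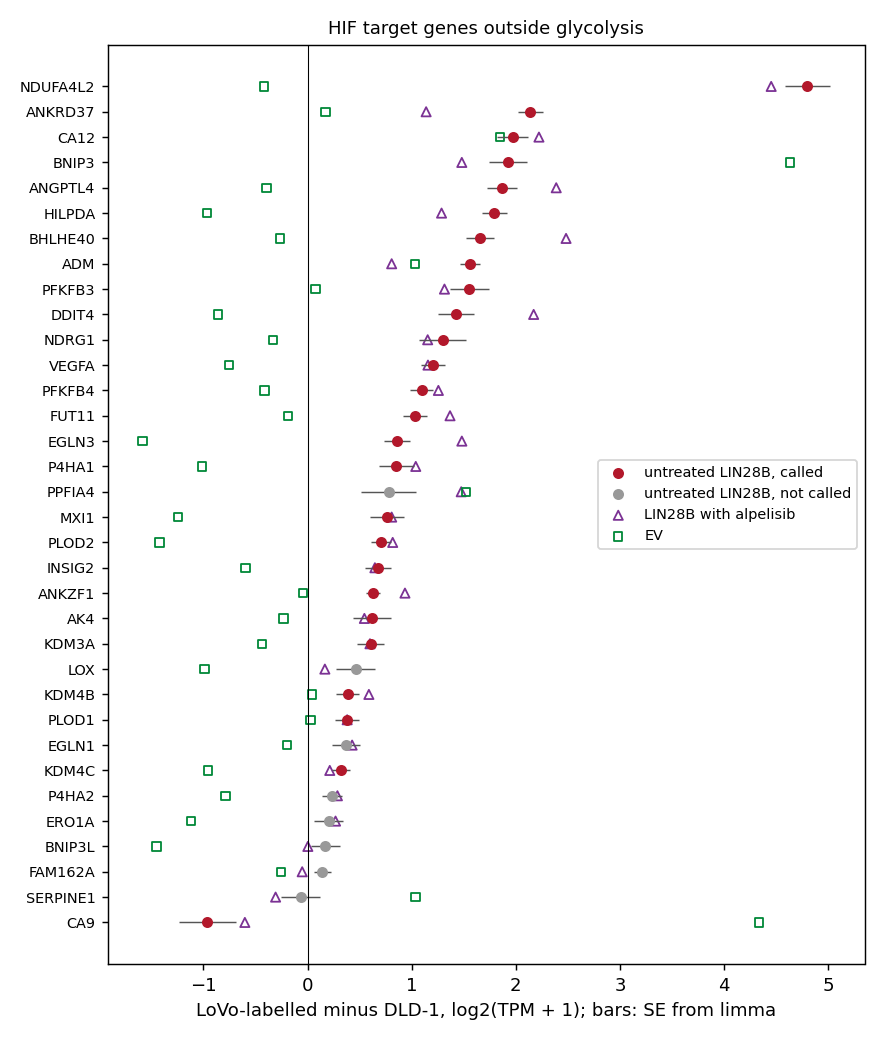
Difference in log2(TPM + 1) between LoVo-labelled and DLD-1 cells (horizontal axis) for the 34 HIF targets tested. Filled circles with limma standard errors are untreated LIN28B cells, triangles LIN28B cells with alpelisib and squares EV cells; NDUFA4L2 is at 4.80 untreated, 4.45 with alpelisib and -0.42 in EV.

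Of 26 glycolysis genes, 25 were tested, 10 were higher and 2 lower (9.20% and 7.35% over all genes), with a median of 0.31. ALDOC, an aldolase isoform, measured 186, 176 and 190.1 against 60.5, 59.9 and 59.2 TPM, and ENO2, the enolase also known from neurons, 290.3, 289 and 329 against 141, 132 and 147 TPM. The hexokinases HK1 and HK2, which commit glucose to the pathway, had differences of 0.98 and 0.77. The glucose transporter SLC2A3 and the lactate transporter SLC16A1 were lower, with differences of -0.72 and -0.77. LDHA and SLC2A1 did not pass, at 0.30 (adjusted p = 0.144) and 0.25 (0.516). Across the alternatives 7 to 16 members were called higher, the highest number being that of the fit on the 6 libraries alone.

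Most nuclear subunits of mitochondrial complex I did not pass the test. Of 37 nuclear complex I subunits 3 were higher and 1 lower (1 higher without the second LoVo-labelled library), with a median of 0.08. C15orf48, which encodes a paralogue of NDUFA4, measured 114, 127 and 126 against 64.2, 55.6 and 49.7 TPM, a difference of 1.11 ± 0.10, adjusted p = 4.82e-07. NDUFA4 itself was level, at 41.9, 36.6 and 38.9 against 42.8, 41.2 and 35.1 TPM (-0.02 ± 0.11, adjusted p = 0.947).

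Intestinal transcription factors were mostly present in both groups, and those that differed were more often higher under the LoVo label. Of 30 factors 24 were tested, 8 were higher and 3 lower, with a median of 0.08. ELF3, an epithelial ETS factor, was the most abundant, at 1559, 1663 and 1621 against 734, 705 and 705 TPM, a difference of 1.17 ± 0.09, adjusted p = 1.15e-07. PPARG, a nuclear receptor of lipid metabolism in colonocytes, measured 89.5, 83.5 and 91.6 against 38.2, 39.5 and 36.1 TPM. KLF4, a factor of differentiated colon cells, HNF4A, a master regulator of enterocyte genes, and ASCL2, a factor of crypt stem cells, had differences of 0.88, 0.74 and 0.69. FOXA1, a pioneer factor, was lower, at 78.9, 81.8 and 78.6 against 131, 118 and 114 TPM, and SOX9, of crypt progenitors, had a difference of -0.38.

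Markers of mature cell types split in direction. Of 12 enterocyte markers tested, out of 28, 3 were higher and 2 lower; 3 of the 12 reached 1 TPM in 1 group alone, so that this count cannot serve as support. FABP1, the fatty acid carrier of enterocytes, measured 9.51, 24.2 and 13.8 against 0, 0.74 and 0.325 TPM and CEACAM7 6.09, 7.38 and 4.23 against 0, 0 and 0.253 TPM. Both passed the filter through the LoVo-labelled group alone, which fixed their direction. KRT20, which reached 1 TPM in both groups, was lower. Of 12 goblet and secretory markers tested, out of 23, 2 were higher (FAM3D and REG4) and 4 lower, with 2 lower without the first DLD-1 library; 1 of the 12 reached 1 TPM in 1 group alone. MUC13, a membrane mucin, measured 19, 17.8 and 17.5 against 34.3, 33 and 31.5 TPM, and MUC5AC, a gel-forming mucin of stomach type, 5.81, 4.39 and 4.73 against 11.6, 12.6 and 10.02 TPM. TFF3, the goblet cell trefoil peptide, was level at 63.6, 64.4 and 61 against 59.4, 59 and 59 TPM (0.09 ± 0.21, adjusted p = 0.831).

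Crypt stem cell and Wnt target genes showed no common direction, with 4 higher and 5 lower of 23 tested, 2 of which reached 1 TPM in 1 group alone. LGR5, the receptor that marks crypt stem cells, gave -0.06 (adjusted p = 0.773) and AXIN2, a feedback target of Wnt, 0.28 (0.0855). PROM1, a membrane protein of stem cells, was lower at 1.08, 1.39 and 2.38 against 6.93, 9.99 and 7.4 TPM, and BMI1, a Polycomb protein, at 18, 19.7 and 24.9 against 57.1, 51.7 and 63.6 TPM. SP5, a direct Wnt target, had a difference of -1.08. DKK1, a secreted Wnt inhibitor, was near absent in DLD-1 cells, at 0, 0.0568 and 0.284 TPM, and low in LoVo-labelled cells, at 2.63, 1.7 and 2.08 TPM. It passed the filter through the LoVo-labelled group alone, which fixed its direction.

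At the cell surface, 8 of 17 CEACAM and surface glycoprotein genes were higher and 4 lower, 1 of the 17 having reached 1 TPM in 1 group alone. CEACAM5, the carcinoembryonic antigen, measured 40.5, 26.1 and 19.8 against 3.82, 7.92 and 7.07 TPM. LY6G6D, a colorectal tumour antigen, measured 97, 129 and 86.7 against 26.9, 28.8 and 22 TPM, and CD24 273, 279 and 279.6 against 167, 157 and 152 TPM. Of 16 claudins and tight junction proteins 6 were lower and 0 higher (median -0.21). They included OCLN (occludin), CLDN2, which forms cation pores, and the scaffold TJP3, at -0.55, -0.79 and -0.48. CLDN1 measured 8.82, 9.52 and 10.4 against 8.36, 6.33 and 7.18 TPM and did not pass (0.36 ± 0.21, adjusted p = 0.292).

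Of 19 genes of epithelial and mesenchymal state 5 were higher and 1 lower. MMP14, a membrane-bound collagenase, measured 27, 21.5 and 24.5 against 5.28, 5.69 and 4.07 TPM, a difference of 2.08 ± 0.15, adjusted p = 4.11e-08, and SNAI1, a repressor of CDH1, 5.17, 5.79 and 5.99 against 2.43, 2.37 and 2.74 TPM. CDH1 and VIM did not pass, at -0.18 (adjusted p = 0.556) and 0.65 (0.0573). Among ion transporters CFTR, the chloride channel of crypt cells, measured 97.4, 102 and 94.8 against 36.9, 34.2 and 31.8 TPM, a difference of 1.49 ± 0.15, adjusted p = 1.69e-06.

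LIN28B itself was higher under the LoVo label, at 706, 682 and 674 against 493, 483 and 408 TPM, with no overlap (0.58 ± 0.15, adjusted p = 0.0137). It did not pass without the third DLD-1 library (adjusted p = 0.0674) or with a pseudocount of 0.1 TPM (0.0652). LIN28B was the 1 gene called of 14 tested in the LIN28 and let-7 machinery, and its paralogue LIN28A was at 0.0537 TPM or less in all 6 libraries. Of 33 let-7 target mRNAs tested, out of 41, 8 were higher, LIN28B among them, and 3 lower. LIN28B is the overexpressed gene, and TPM per gene does not separate the introduced from the cell's own transcript. Its calls in both lists are therefore not read as a response. With 1 library left out 0 to 2 let-7 targets were lower, and 1 of the 33 reached 1 TPM in 1 group alone. SLC20A1, a phosphate transporter, measured 177, 181 and 188 against 49.3, 57.1 and 50.8 TPM, and IGF1R, a growth factor receptor, 12.3, 10.3 and 10.1 against 5.91, 5.74 and 5.69 TPM. The let-7 targets HMGA2 and MYC, an architectural protein of chromatin and a growth regulator, were lower, at 24.9, 27.8 and 23.1 against 37.6, 34.1 and 30.4 TPM and 37.7, 37.7 and 38.2 against 55.2, 60.1 and 55.3 TPM. MYC did not pass with any 1 library left out (adjusted p from 0.0788 to 0.117), and HMGA2 not with the first or the third LoVo-labelled or the first or second DLD-1 library left out (from 0.0529 to 0.0899 in these 4 fits). MYCN, a relative of MYC, was higher by 0.97. The RNA-binding proteins IGF2BP2 and IGF2BP3 gave 0.20 (adjusted p = 0.0864) and 0.57 (0.146) and did not pass, and IGF2BP1 was under the filter.

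In the PI3K pathway, which relays growth factor signals to AKT and mTOR, 6 of 37 genes were higher and 0 lower (16.2%, against 16.5% of all genes called in either direction), a share near the background. Among them were TSC1, TSC2, INPPL1, PIK3C3 and FOXO1. TSC2 did not pass without the first DLD-1 library (0.0711), and PIK3C3 not without the third LoVo-labelled (0.0547) or the third DLD-1 library (0.0687). INPPL1 is a phosphatase that acts on the lipid product of PI3K, TSC1 and TSC2 restrain mTORC1, and FOXO1 is a factor that AKT keeps out of the nucleus. TSC1 measured 29, 28.2 and 28.1 against 18.1, 17.9 and 16.4 TPM and TSC2 94.8, 94.4 and 94 against 66.7, 76.2 and 69.98 TPM. PIK3CA, the catalytic subunit that alpelisib inhibits, measured 15, 14.4 and 15.6 against 12.6, 10.5 and 12 TPM and did not pass (0.33 ± 0.15, adjusted p = 0.137). PIK3CB, PIK3R1, AKT1 and AKT2 did not pass either, with differences of -0.29, 0.19, 0.01 and -0.07.

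Upstream of PI3K, 5 of 14 genes of the insulin and IGF axis were higher and 2 lower, and 0 were lower without the first DLD-1 library. The ligand IGF2 measured 14.5, 12.7 and 15.4 against 7.51, 7.58 and 7.34 TPM. IGFBP3, a binding protein that holds IGFs outside cells, measured 40.8, 28.5 and 40.3 against 12.2, 10.1 and 10.8 TPM (1.63 ± 0.13, adjusted p = 1.66e-07), and IGFBP4 and IGFBP6 differed by 1.02 and 1.02. The insulin receptor substrate IRS2 and the receptor INSR did not pass (0.27 and 0.21). AREG and EREG, ligands of the EGF receptor, were lower. They measured 92.6, 97.5 and 92.6 against 232, 197 and 217 TPM and 92.5, 91.3 and 104 against 249.7, 202 and 234 TPM, with differences of -1.18 ± 0.08, adjusted p = 2.50e-08 and -1.24 ± 0.17, adjusted p = 5.23e-05. The receptor ERBB3 was lower, at 61.2, 64.4 and 53.4 against 89.4, 76.8 and 74.5 TPM, and ERRFI1, an inhibitor of EGFR, was higher, at 907, 742 and 927 against 422, 327 and 434 TPM. Among other receptor tyrosine kinases FGFR3 measured 34, 41.4 and 45.1 against 9.88, 7.67 and 14 TPM.

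Of 17 Notch pathway genes 7 were higher (41.2%, against 9.20% of all genes) and 0 lower; without the first LoVo-labelled library 4 were higher. The ligand DLL1 measured 8.03, 7.11 and 8 against 1.3, 0.755 and 1.01 TPM, a difference of 2.11 ± 0.19, adjusted p = 4.16e-07. The coactivator MAML2 and HES6, of the HES repressor family, differed by 0.61 and 0.63. The receptor NOTCH3 did not pass (0.18 ± 0.19, adjusted p = 0.567). In the TGF-beta and BMP pathway 10 of 25 genes were higher and 4 lower, and with 1 library left out 7 to 10 were higher and 1 or 2 lower. The ligand TGFB2 measured 49.98, 53.6 and 55.3 against 13.6, 14.5 and 14.5 TPM, a difference of 1.83 ± 0.14, adjusted p = 7.03e-08. The inhibitors of differentiation ID1, ID2 and ID3, which are BMP targets, were all higher, by 0.64, 1.33 and 0.83, and ID2 measured 834, 926 and 811 against 368, 359 and 299.6 TPM. The activin chain INHBB was lower at 1.65, 1.96 and 1.64 against 7.21, 6.16 and 7.39 TPM.

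Immediate early genes and feedback genes of ERK signalling moved in both directions. Of 29 genes 8 were higher and 8 lower, and 5 were lower without the second LoVo-labelled or the third DLD-1 library. FOS and JUN, the partners of AP-1, measured 105, 99.1 and 81.4 against 36.8, 19.4 and 24.2 TPM and 66.9, 64.4 and 61.6 against 30.4, 23.7 and 24 TPM. JUNB, FOSL2 and EGR1 differed by 0.74, 0.96 and 0.63. The ETS factor ETV4, which ERK induces, had a difference of -0.51, and the phosphatase DUSP5 and inhibitor SPRY4 of -0.60 and -0.54. DUSP6, another such phosphatase, did not pass (0.10, adjusted p = 0.6).

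Mitosis genes were lower or did not pass. Of 34 genes of mitosis and spindle 13 were lower (38.2%, against 7.35% of all genes tested) and 0 higher, with a median of -0.34. TTK, a kinase of the spindle checkpoint, measured 19.5, 19 and 17.4 against 43.3, 40.8 and 40.7 TPM (-1.12 ± 0.12, adjusted p = 3.13e-06), and CCNB1, the mitotic cyclin, 112, 111 and 104 against 177, 163 and 159.5 TPM. CDC20 and TOP2A, an activator of anaphase and a topoisomerase, differed by -0.48 and -0.40. The number called lower was 5 without the third LoVo-labelled library, 7 without the first DLD-1 library and 8 without the second library of either group, and 20 in the fit on the 6 libraries alone. In DNA replication and G1/S 1 of 42 was higher and 3 lower (0 to 2 lower with 1 library left out), and in cytosolic ribosomal proteins 1 of 79 and 1 of 79. CDKN1A, the cell cycle inhibitor p21, measured 65.6, 63 and 66.8 against 33.3, 35.2 and 37.4 TPM (0.87 ± 0.13, adjusted p = 1.76e-04), while the p53 target list as a whole had 3 higher and 3 lower of 22, and 0 lower without the first or the third DLD-1 library.

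Stress and antioxidant lists were mixed. Of 33 members of the list for ATF4 and amino acid stress 4 were higher and 4 lower, and 2 were lower without the second LoVo-labelled, the first DLD-1 or the third DLD-1 library. GDF15, a stress-induced cytokine, measured 1219, 1024 and 1229.7 against 465, 413 and 423 TPM and NUPR1, a stress protein, 33.3, 27 and 43 against 10.03, 4.83 and 4.43 TPM. The amino acid transporters SLC1A5 and SLC38A2 were lower, with differences of -0.96 and -0.66, and ASNS did not pass (0.28, adjusted p = 0.349). Of 23 NRF2 and glutathione genes 6 were higher and 1 lower, 3 of the 23 having reached 1 TPM in 1 group alone. GPX2, the glutathione peroxidase of gut, measured 11.7, 12 and 14.3 against 1.37, 2.38 and 0.99 TPM, while NQO1 gave 0.15 (adjusted p = 0.422). Of 26 cholesterol synthesis genes 7 were higher and 1 lower, and 4 were higher without the third LoVo-labelled, the first DLD-1 or the third DLD-1 library. In fatty acid metabolism ACSS2, which makes acetyl-CoA from acetate and lies on chromosome 20, measured 493, 481 and 508 against 219.9, 209 and 191 TPM (1.25 ± 0.08, adjusted p = 1.96e-08). The metallothionein genes MT1A and MT1G, whose products bind zinc, were listed at 0 in all DLD-1 LIN28B libraries. They measured 4.89, 2.16 and 5.72 and 1.32, 3.31 and 6 TPM in LoVo-labelled cells. Both passed the filter through the LoVo-labelled group alone, which fixed their direction. They belong to a family of near-identical copies, so their split is uncertain.

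Immune genes also had no common direction. Of 30 interferon-stimulated genes 7 were higher and 10 lower; without the third LoVo-labelled library 4 were higher and 6 lower, and without the first 6 were lower. Of the 30, 2 reached 1 TPM in 1 group alone. IFITM1, an antiviral membrane protein, measured 55, 52.2 and 53.5 against 7.28, 5.45 and 7.91 TPM (2.80 ± 0.15, adjusted p = 8.22e-10), while OAS3, an antiviral enzyme, was lower, with a difference of -0.57. Of 18 genes of MHC class I presentation 1 was higher and 5 lower (9.20% and 7.35% over all genes), with a median of -0.24. Among the 5 were the immunoproteasome subunits PSMB9 and PSMB8 and the peptidase ERAP2, which trims peptides, with differences of -1.03, -0.43 and -0.59. The 1 higher member, HLA-B, measured 76.1, 74.2 and 77.4 against 41.9, 42.8 and 42.6 TPM. HLA genes share sequence and their reads can be split between them. Of 21 epithelial chemokines and cytokines 7 were higher and 8 lower, and 4 and 5 without the second DLD-1 library. IL1B, an inflammatory cytokine, measured 12.4, 18 and 12.6 against 1.31, 1.34 and 0.451 TPM, and IL33 and IL18, alarmins of epithelium, 7.97, 7.31 and 8.53 against 25.3, 24 and 22.4 TPM and 24.1, 28.4 and 26.6 against 63.8, 58.7 and 59.5 TPM. CSF1, the growth factor of macrophages, measured 0.62, 1.11 and 0.697 against 4.48, 7.49 and 5 TPM.

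MSH6, a mismatch repair gene, was slightly higher under the LoVo label, at 14.7, 13.6 and 14.5 against 11.6, 11.7 and 9.62 TPM (0.35 ± 0.11, adjusted p = 0.0402), but did not pass with any 1 library left out (adjusted p from 0.0537 to 0.169).

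Chromosome 20 held the highest share of genes called higher. Of its 389 genes tested, 89 were higher (22.9%) and 21 lower (5.40%), against 9.20% and 7.35% over all genes, and its median difference was 0.14. On every other chromosome between 7.04% and 12% of genes were higher. The median of chromosome 20 genes was 0.19 under alpelisib and -0.37 in EV. In windows of 10 Mb along GRCh38, 26 of 94 genes were higher from 30 to 40 Mb, 22 of 64 from 40 to 50 Mb and 15 of 63 from 60 to 70 Mb. From 50 to 60 Mb 5 of 44 were higher and 3 lower, and from 20 to 30 Mb 3 of 28 were higher and 5 lower. The highest window median on chromosome 20 was 0.256, from 60 to 70 Mb. Windows on chromosome 10 (0 to 10 Mb, 0.276) and chromosome 18 (10 to 20 Mb, 0.263) had higher medians. DNA copy number was not analysed here.

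**Figure D5:**
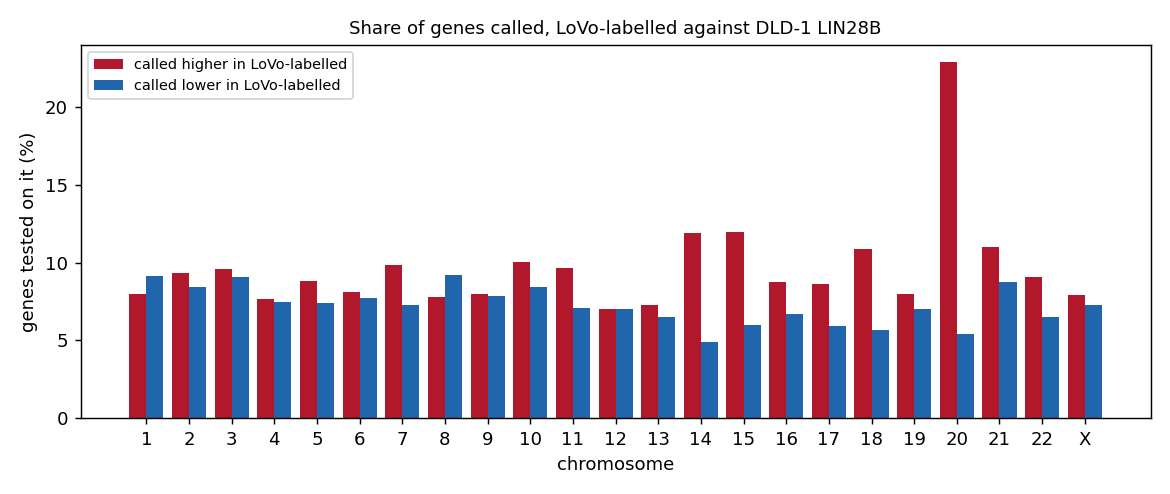
Percentage of the genes tested on each chromosome that were called higher (red) or lower (blue) in LoVo-labelled LIN28B against DLD-1 LIN28B. Chromosome 20 stands at 22.9% higher, while the other chromosomes lie between 7.04% and 12%.

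The same contrast was computed in cells given 5 µM alpelisib, from libraries that the untreated comparison did not use. There 3279 genes (21.2%) were called, 1878 higher (12.1%) and 1401 lower (9.04%). This split turned under scaling by the median of ratios, to 1730 higher and 2066 lower. Of the 1425 genes higher in untreated cells 942 (66.1%) were also higher with alpelisib, which is 50.2% of the genes higher there, and 4 were lower. Of the 1139 lower genes 586 (51.4%, and 41.8% of those lower there) were also lower, and 19 were higher. KRT20 gave -4.11, NDUFA4L2 4.45, FAM3D 3.31, SLC39A2 5.48 and CDX2 0.83 with alpelisib. FAM3D and SLC39A2 had passed the filter only through the untreated LoVo-labelled group, so their values here are not support. HIF targets were higher for 27 of 34 and lower for 0 (median 0.88), and mitosis genes lower for 29 of 34 and higher for 0 (median -0.63). DNA replication and G1/S genes were lower for 25 of 42 with alpelisib. The test of the difference between the contrasts called 3 of the 34 HIF targets, 1 of the 34 mitosis genes and 1 of the 42 replication genes. Over all genes tested it called 156 of 15495 (1.01%).

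A test of the difference between the untreated and the alpelisib contrast called 156 genes (1.01%), 42 positive and 114 negative; scaling by the median of ratios called 274, of which 118 were positive. REG4 had the largest positive value, its excess being 3.74 untreated and 1.79 with alpelisib. CHAC1, an enzyme that degrades glutathione, had the largest negative value. It measured 11.9, 9.22 and 13.3 TPM in LoVo-labelled and 42.3, 14.1 and 36 TPM in DLD-1 libraries, with the second DLD-1 library far below the other two and near the LoVo-labelled range. Its difference between contrasts did not pass in 11 of the 12 fits that left out 1 library, and did without the second DLD-1 library (adjusted p = 0.00464). SLC26A2, a sulfate transporter, had an excess of 1.11 untreated and 3.07 with alpelisib.

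With an empty vector the contrast was between the libraries labelled LoVo EV and DLD-1 EV, again on other libraries. There 9330 genes (60.2%) were called, 2325 higher (15.0%) and 7005 lower (45.2%) in LoVo EV, with a median of -0.30. The median moved to -0.04 and the split to 3995 higher and 4808 lower under scaling by the median of ratios, so differences in EV are best read against that shift. The mitochondrial genome share was 14.5% to 24.0% in LoVo EV and 9.23% to 11.8% in DLD-1 EV. Of the 1425 genes higher under the LoVo label with LIN28B, 466 were higher (32.7%, and 20.04% of those higher in EV) and 521 lower (36.6%) in LoVo EV. Of the 1139 lower genes 684 were lower (60.1%, and 9.76% of those lower in EV) and 150 higher. Of the 34 HIF targets 6 were higher and 17 lower in LoVo EV, with a median of -0.36, close to the values over all genes (15.0%, 45.2% and -0.30).

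The marker genes divided in the EV contrast. KRT20 was lower in LoVo EV as well (-6.23), and CALB1 was higher (8.34). NDUFA4L2 (-0.42, adjusted p = 0.11) and SLC39A2 (0.33, adjusted p = 0.0634) did not pass in EV. FAM3D and CDX2 were lower in LoVo EV, with differences of -1.42 and -1.42, the opposite of their direction with LIN28B. A test of the difference between the LIN28B and the EV contrast called 7291 genes (47.1%), 5640 positive and 1651 negative, which became 3644 and 2954 under scaling by the median of ratios. NDUFA4L2, SLC39A2 and FAM3D were among the 5 most positive. They are marker genes chosen with earlier results of these data known, so their rank is no support. SLC39A2 and FAM3D also passed the filter only through the LoVo-labelled group.

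The LoVo-labelled LIN28B cells were also set against all 6 untreated DLD-1 libraries, EV and LIN28B together. Of the 2564 genes called, 1232 lay above and 915 below every one of the 6 (83.7% in all), against 25.6% of all genes tested. The DLD-1 LIN28B libraries are shared with the call, so these shares are no test. Against the 3 DLD-1 LIN28B libraries alone, 98.8% of the called genes and 38.5% of all genes did not overlap.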

How the data were processed

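RNA-seq of poly(A)-enriched RNA gave 18 libraries in 6 groups of 3, grouped and numbered by their labels. The deposited values are TPM, computed by the authors, per the file headers, so sequencing depth is unknown and neither counts nor counting intervals can be given. The submitters' processing notes name the build hg38 and, with no order, DESeq2, HTSeq, Picard and STAR 2.7.10. Annotation, strand setting and gene lengths were not stated there. Since each library's TPM has a fixed total, abundant transcripts shift all others.

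Genes with at least 1 TPM in 3 or more of the 6 libraries were kept (15495). The test was limma (version 3.58.1, under R 4.3.3) on log2(TPM + 1), with a pseudocount of 1, in 1 model of the 18 libraries and 6 groups (12 residual and 4.46 prior degrees of freedom, eBayes with trend), two-sided, with Benjamini-Hochberg adjustment over all genes of a comparison and calls under 0.05. Contrasts were LoVo-labelled minus DLD-1 in untreated LIN28B, alpelisib and EV cells, and 2 differences between contrasts. The comparison, the members and the 43 gene lists were chosen with earlier results of these data known. The genes named are the 12 largest excesses and deficits among called genes whose groups do not overlap and whose mean reaches 2 TPM in 1 group, the 5 largest in each direction by mean TPM, a fixed set of markers and pathway genes, the lowest p-values of each described list (5 members at most), the 5 largest in each direction for each difference between contrasts, and the defining members of a list that were not called; further list members were named after their values were seen. Sex-linked marker genes and some other genes that the rule names are not reported here.

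Alternatives were pseudocounts of 0.1 and 0.5, no filter or a filter of 5 TPM, median-of-ratios scaling, TPM without mitochondrial genome genes, no trend, the compared libraries alone, the replicate number as a block and leaving out each library. Simulated data with the real spread gave calls for 92% of 50 genes changed by 1, 82% of 50 changed by -1 and 34% of 50 changed by 0.5 on the log2 scale, with 14 false calls, in the LoVo-labelled against DLD-1 LIN28B comparison of 15495 genes. Gene positions are from GENCODE on GRCh38, and promoters from RefSeq.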

Additional observations from a re-analysis of the deposited data

Results flagged for a closer look

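The differences between the LoVo-labelled and DLD-1 libraries were compared between conditions with an interaction term in limma, and the 5 largest called genes in each direction are given here; values are on the log2(TPM + 1) scale. The difference between the labels in untreated cells minus that with alpelisib was positive for REG4 (1.96), RAMP1 (1.73), LIF (1.21), PLA2G12A (1.17) and PRADX (1.15). RAMP1, a receptor partner for calcitonin-family peptides, gave -1.0 untreated and -2.73 with alpelisib. LIF, an interleukin-6 family cytokine, was at -0.31 untreated, which did not pass, and -1.52 with alpelisib. It was negative for CHAC1 (-2.04), SLC26A2 (-1.96), DIO3 (-1.95), KALRN (-1.85) and HES2 (-1.84). CHAC1, PRADX, RAMP1 and KALRN lost this call when some single libraries were left out, CHAC1 in 11, PRADX in 5, RAMP1 in 3 and KALRN in 4 of 12 fits.

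The difference between the labels with LIN28B minus that in EV was positive for TFF3 (5.47), NDUFA4L2 (5.22), FAM3D (5.08), KIT (5.02) and SLC39A2 (5.01). NDUFA4L2, FAM3D and SLC39A2 are marker genes chosen with earlier results of these data known, so their rank is no support. FAM3D and SLC39A2 also passed the filter through the LoVo-labelled group alone. TFF3 and KIT, a trefoil peptide and the receptor of stem cell factor, did not pass with LIN28B (0.09 and 0.27) and were lower in LoVo EV (-5.37 and -4.74). The same difference was negative for CD74 (-6.41), AKAP12 (-5.37), CA9 (-5.30), LTB (-5.27) and LINC02582 (-4.99). CD74, the invariant chain of MHC class II, was at 6.87 in EV and 0.46 with LIN28B, where it did not pass, and AKAP12, a kinase scaffold, at 4.71 and -0.66.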

How the results depend on the processing

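The number of genes called between LoVo-labelled and DLD-1 LIN28B (2564) stayed within 1.5 times under all alternatives, from 1812 to 1982 with 1 library left out and from 2054 to 2932 otherwise. Under alpelisib it was 2453 to 2896 with 1 library left out, and in EV 8297 to 9590. The untreated minus alpelisib difference (156) gave 94 to 169 with 1 library left out and 274 under median-of-ratios scaling, and the LIN28B minus EV difference 6492 to 8039 with 1 left out. Same-numbered libraries of the LoVo-labelled and DLD-1 LIN28B groups did not deviate together (r of 0.0099, -0.1077 and 0.1635 across genes), so the numbers were not taken as pairs; with the replicate number as a block 2326, 3038, 9110, 119 and 6997 genes were called in the 5 comparisons. Many named genes were chosen for large differences or low p-values in the main fit, so their stability does not stand for all called genes. Of 152 named genes that were called, 136 were called under every alternative in which they were tested. The others lost the call in at least 1 and 0 changed direction; for GAPDH this was without the filter on low values (adjusted p = 0.0515). TPM keeps no depth, so that the precision of low genes cannot be judged from reads, and 3 libraries a group leave differences under 2-fold partly undetected.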

Other observations

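A search across all 18 libraries asked which genes were under 0.5 TPM in all 6 LoVo-labelled LIN28B libraries, with and without alpelisib, and at 1 TPM or more in each of the other 12. It found 6 genes: PEAR1, ZNF264, KLK7, LINC01515, ARHGAP40 and ZNF738. The same search for the 6 DLD-1 LIN28B libraries found 0. KLK7 had the widest gap, at 0.346 TPM or less in the 6 libraries and between 4.81 and 22.9 TPM in the others. ARHGAP40 stood at 0.298 TPM or less against 2.26 to 11.6 TPM, and ZNF738, a zinc finger gene, at 0.154 TPM or less against 1.63 to 6.53 TPM. These genes were chosen for this pattern and it was not tested.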
